A study of Mus musculus with 6 samples.

Results

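The keratins described here are 10 of the 33696 genes in the count tables, and 10 of the 53 genes there whose symbol starts with Krt: Krt5, Krt14, Krt15, Krt1, Krt10, Krt6a, Krt6b, Krt16, Krt17 and Krt79. They were chosen by symbol with their levels in these libraries already known, so their levels and ratios are a description with no test. The level of a gene is given as CPM, its counted molecules (UMIs) per 1000000 UMIs of the cells pooled. All 10 were found in every library's table. Single cells came from the Achilles tendon of Gli1-CreERT2; Ai9 mice given tamoxifen, in which cells that used the Gli1 promoter at that time, and their descendants, carry a red fluorescent protein. Every mouse carried both alleles and received tamoxifen. The Gli1+ (red) and Gli1- cells were separated by flow sorting from uninjured mice and from mice at 7 and 21 days post injury (dpi), where the skin was opened, the tendon clamped and cut, and the skin sutured. The 8 mice of each time point (24 in all, both sexes equally) gave 1 library per sort, in which the animals cannot be told apart, and no age is given here. The labels name tendon cells. Outside every epidermal gate, 6 tendon genes (Scx, Tnmd, Mkx, Thbs4, Fmod and Comp) summed to 1958, 1508 and 3347 CPM in the Gli1+ libraries uninjured, at 7 and at 21 dpi, while the cells described below are epidermal.

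Keratins are the intermediate filament proteins of epithelia, and each filament pairs a type I with a type II keratin. In resting epidermis the basal layer makes KRT5 with KRT14, and KRT15 as a second type I keratin, while the layers above switch to KRT1 with KRT10. At a skin wound the keratinocytes near the edge turn on KRT6A, KRT6B, KRT16 and KRT17, which are otherwise largely kept to hair follicles and other appendages, where KRT79 marks the upper follicle and sebaceous duct.

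All 10 genes lie on the minus strand in 2 gene clusters of GRCm38 (GENCODE vM21). The type I genes Krt10, Krt15, Krt14, Krt16 and Krt17 lie on chromosome 11 between 99385254 and 100261029. The type II genes Krt6b, Krt6a, Krt5, Krt1 and Krt79 lie on chromosome 15 between 101676023 and 101940324. Neighbours in a cluster can be near copies, which decides how far their counts can be kept apart. Krt6a and Krt6b are the closest pair, with 1625 of 1662 aligned coding bases identical (97.8%), and Krt14 and Krt16 shared 86.5%. The last 120 coding bases of these pairs, from the stop codon backwards, are shown as the coding stretch nearest the end that 3′ libraries read. After the stop codon, 557 bases follow in Krt6a and 506 in Krt6b, against 150 in Krt14 and 143 in Krt16. The Krt6a and Krt6b stretches thus lie upstream of the last 500 transcript bases compared below. Capitals mark the bases that differ from the partner or have no partner in the alignment.
Krt6a, chr15:101690467-101690586, minus strand, in the last exon: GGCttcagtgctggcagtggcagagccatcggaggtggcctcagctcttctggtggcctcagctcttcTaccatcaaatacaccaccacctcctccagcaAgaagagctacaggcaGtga
Krt6b, chr15:101676529-101676648, minus strand, in the last exon: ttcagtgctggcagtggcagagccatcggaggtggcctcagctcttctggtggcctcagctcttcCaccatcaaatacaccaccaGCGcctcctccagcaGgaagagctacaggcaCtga
Krt14, chr11:100203312-100203977, minus strand, 2 exons joined: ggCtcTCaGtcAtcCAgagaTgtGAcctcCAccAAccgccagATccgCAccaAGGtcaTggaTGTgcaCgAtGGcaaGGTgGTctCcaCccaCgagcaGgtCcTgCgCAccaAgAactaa
Krt16, chr11:100246234-100246493, minus strand, 2 exons joined: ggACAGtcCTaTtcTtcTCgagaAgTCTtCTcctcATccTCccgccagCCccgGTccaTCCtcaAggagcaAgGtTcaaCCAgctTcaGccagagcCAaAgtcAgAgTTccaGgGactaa
In this stretch Krt6a and Krt6b agreed at 114 of 117 aligned bases, and Krt14 and Krt16 at 75 of 112. Over the last 500 bases of each transcript, 0 of 411 windows of 90 bases occurred in another gene for 9 members. For Krt16, 18 of 411 windows (4.38%) also occurred in Gm11597. Reads further upstream, in the coding part that Krt6a and Krt6b share, could still be split or dropped between these 2 genes, so their separate levels are less certain than their sum. A 3′ library counts about 1 tag per transcript, so CPM was not divided by length.

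The 6 libraries held 8236 to 16437 barcodes and, after filters and doublet removal, 7057 to 10882 cells with 53589094 to 107739968 UMIs and a median of 4297 to 9770 UMIs per cell. Pairs of libraries shared 27 to 75 barcodes (0.328% to 0.534% of the smaller library). The Gli1+ uninjured library stood apart from the other 5: 1885 of its 7057 cells (26.7%) lay outside the epidermal gates and held Ptprc, the pan-leukocyte marker, and no gene of another gate, against 0 cells in Gli1+ 7 dpi and 1 to 10 cells in the other 4. With 1 library per condition, no difference between conditions has a replicate check. Intervals in brackets are 95% intervals (exact Poisson for CPM, exact binomial for shares and for ratios of counts), and they cover counting error only, since the cells of a library share their source.

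Cells were called epidermal where Krt5 and Krt14 together made up at least 0.5% of their UMIs, the chosen rule. In the Gli1+ sort these were 75 of 7057 cells uninjured (1.06% [0.837 to 1.33]), 1584 of 9250 at 7 dpi (17.1% [16.4 to 17.9]) and 522 of 9780 at 21 dpi (5.34% [4.90 to 5.80]). In the Gli1- sort they were 0 of 10882 cells uninjured (0% [0 to 0.0339]), 30 of 9931 at 7 dpi (0.302%) and 38 of 10867 at 21 dpi (0.350%). The epidermal share was 16.1 times as high at 7 dpi as uninjured in the Gli1+ sort by this gate, 23.9 times with the gate at 0.1%, 84.9 times with it at 2%, which left 9 uninjured cells, and 12.9 times with a gate on 15 other epidermal genes. The gate at 0.1% took in 4259 of 9250 cells at 7 dpi, where cells outside every epidermal gate held Krt5 and Krt14 near that share. Skin carried along in dissection, the gate of the sort and a change in the tissue cannot be told apart in these shares, which also depend on the library's other cells, such as the Ptprc cells above.

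The epidermal label was checked with 15 genes that are not keratins, among them Trp63, Epcam, Dsp, Perp, Sfn and Lgals7. All 15 were detected in the gated cells of the 3 Gli1+ libraries, at a summed 20201 CPM uninjured, 21936 at 7 dpi and 16324 at 21 dpi. In the cells outside every epidermal gate the same sum was 207, 1812 and 199 CPM. A low share of these 15 genes was part of the choice of those cells, so this contrast is fixed in part by that choice. The gated cells were chosen by Krt5 and Krt14 only, so their own sums are not set by the 15 genes. Mesenchymal genes (Pdgfra, Col1a1, Col1a2, Col3a1, Dcn and Lum) were also counted in the gated cells. In the Gli1+ sort they summed to 162 CPM uninjured, 5286 at 7 dpi and 1577 at 21 dpi, against 11770, 44530 and 47921 CPM in the cells outside every gate. All 6 of them were at least 2-fold higher in gated cells at 7 dpi than uninjured, Col1a1 at 2028 against 31.5 CPM. Of 8454 genes at a mean of 10 CPM or more, 6.38% were higher. Of the 6, 3 were under 10 CPM uninjured and reached that mean only through the 7 dpi library, so nothing is read from the count. By the sums, the gated cells of that library held more counts of genes that mark other cells. Their part in the keratin levels was not tested.

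**Figure D1:**
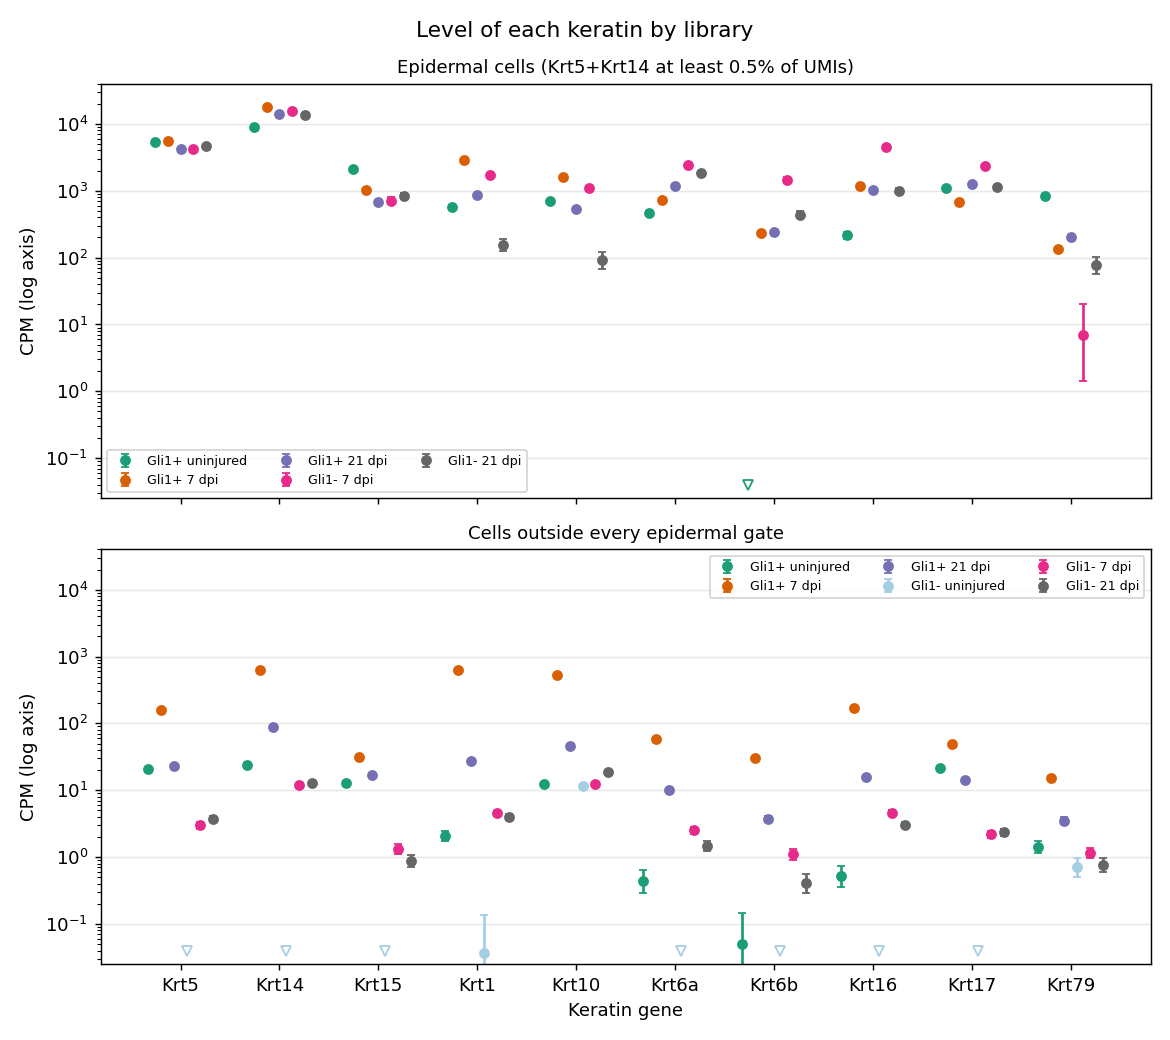
Level of each keratin by library (points, CPM on a log axis, bars are 95% Poisson intervals, open triangles mark 0 UMIs), in epidermal cells above and in cells outside every epidermal gate below. Krt14 is the highest keratin in the epidermal cells of all 5 libraries that have them, and the lower panel is highest in the Gli1+ 7 dpi library for all 10 genes.

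Krt14 and Krt5 were the highest members in 4 of the 5 libraries with epidermal cells, and in Gli1- 7 dpi Krt16 stood above Krt5. There 1 of the 30 cells held 65.3% of the Krt16 UMIs, and without it Krt16 was at 1716 and Krt5 at 4352 CPM. Krt14, the type I keratin of the basal layer, was at 8907 CPM [8764 to 9052] in Gli1+ epidermal cells uninjured, 17962 at 7 dpi and 13827 at 21 dpi [13749 to 13905], and the Gli1- cells held 15327 and 13721 CPM at 7 and 21 dpi. Its partner Krt5 was at 5336 CPM [5225 to 5449] uninjured, 5511 [5474 to 5548] at 7 dpi and 4244 [4201 to 4288] at 21 dpi, and the Gli1- cells held 4205 and 4623 CPM. Krt14 was 2.02-fold higher at 7 dpi than uninjured (log2 1.01 [0.99 to 1.04]), while Krt5 differed by 0.05 on the log2 scale. Both genes set the gate, so their levels in gated cells are fixed in part by it. Krt15, which marks quiet basal and bulge cells, went the other way. It was at 2080 CPM [2011 to 2150] uninjured, 1017 [1001 to 1033] at 7 dpi and 682 [665 to 700] at 21 dpi, a log2 ratio of -1.03 and then -1.61 against uninjured. The Gli1- cells held 712 and 835 CPM of Krt15, near the injured Gli1+ values. In the median gated cell Krt15 stood at 801 CPM uninjured, 523 at 7 dpi and 226 at 21 dpi.

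The suprabasal pair was highest at 7 dpi in the Gli1+ sort. Krt1 was at 581 CPM [545 to 619] in Gli1+ epidermal cells uninjured, 2836 [2809 to 2862] at 7 dpi and 855 [835 to 874] at 21 dpi. Krt10 was at 698 CPM [658 to 740], 1609 [1588 to 1629] and 530 [515 to 546]. The Gli1- cells held 1712 CPM of Krt1 at 7 dpi and 156 at 21 dpi, and 1088 and 91.1 CPM of Krt10. These 7 dpi values rest on few cells: among the 30 Gli1- cells, 1 cell held 68.3% of the Krt1 UMIs and 1 cell 81.3% of the Krt10 UMIs. A Krt10 UMI was found in 16.7% of the Gli1- gated cells at 7 dpi and 34.2% at 21 dpi (6.67% and 11.1% after each cell was thinned to 2000 UMIs). The log2 ratio of 7 dpi over uninjured was 2.29 for Krt1 and 1.20 for Krt10. Of the 7 dpi counts, a large share was also present outside the epidermis: the cells outside every epidermal gate held 623 CPM of Krt1 and 521 of Krt10 in that library. With the CPM of all cells under the gate subtracted, Krt10 no longer differed between 7 dpi and uninjured (log2 -0.01), and with only the cells outside every epidermal gate subtracted it was 0.67.

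The wound keratins Krt6a, Krt6b and Krt16 were higher in the injured libraries. Krt16, the type I wound keratin, was at 214 CPM [193 to 238] in Gli1+ epidermal cells uninjured, 1189 [1171 to 1206] at 7 dpi and 1017 [996 to 1039] at 21 dpi, and the Gli1- cells held 4549 and 998 CPM at 7 and 21 dpi. Krt6a, a type II partner, was at 459 CPM [427 to 493], 721 [708 to 735] and 1185 [1163 to 1208], and the Gli1- cells held 2412 and 1858 CPM. Krt6b was at 0 UMIs in the 75 uninjured cells, 231 CPM [224 to 239] at 7 dpi and 241 [231 to 251] at 21 dpi, and the Gli1- cells held 1465 and 441 CPM. No Krt6b UMI was therefore counted in the uninjured gated cells, while both other genes were present there. Krt16 was 5.55-fold higher at 7 dpi than uninjured (log2 2.47 [2.32 to 2.63]) and Krt6a 1.57-fold (log2 0.65 [0.55 to 0.76]). Against a floor of 3 UMIs over the uninjured gated cells, Krt6b was at least 127-fold higher at 7 dpi and at least 132-fold at 21 dpi. At 21 dpi the log2 ratio over uninjured was 2.25 for Krt16 and 1.37 for Krt6a.

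Summed over these 3 genes, Gli1+ epidermal cells held 673 CPM uninjured, 2141 at 7 dpi and 2443 at 21 dpi, a 3.18-fold difference at 7 dpi (log2 1.67 [1.58 to 1.76]) and 3.63-fold at 21 dpi (log2 1.86 [1.77 to 1.95]). This sum leaves out Krt17, which was lower at 7 dpi; with Krt17 added, a choice made after seeing the data, it was 1755 CPM uninjured, 2818 at 7 dpi and 3720 at 21 dpi, or 1.61-fold and 2.12-fold higher. The uninjured sum of the 3 genes rests largely on 1 cell. That cell, with 28507 UMIs, held 427 Krt6a, 235 Krt16, 517 Krt17, 376 Krt79 and 361 Krt14 UMIs and none of Krt5, Krt1, Krt10 or Krt15, and it carried 59.5% of the 3 genes' UMIs. Without it the uninjured sum was 277 CPM, and Krt6a stood at 204 and Krt16 at 73.3 CPM. With the top cell of each library left out, the sum was 7.44-fold higher at 7 dpi and 8.24-fold at 21 dpi. The Gli1- sums of 8426 CPM at 7 dpi and 3298 at 21 dpi also rested on 1 cell each, which held 54.9% and 54.3% of them, and they were 4129 and 1664 CPM without it. In Gli1+ cells at 7 and 21 dpi the top cell held 3.84% and 6.85%. Without gated cells that held a UMI of Pdgfra, Col1a1, Ptprc, Pecam1 or Cdh5, which left 34 uninjured and 13 cells at 21 dpi, the log2 ratio of the sum at 21 dpi was 0.52, and at 7 dpi no cell was left.

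Krt17, which hair follicles also make, was lower at 7 dpi than uninjured at the gate used. It was at 1082 CPM [1032 to 1133] in Gli1+ epidermal cells uninjured, 678 [665 to 691] at 7 dpi and 1277 [1253 to 1301] at 21 dpi, a log2 ratio over uninjured of -0.67 and 0.24. In the Gli1- cells it was at 2313 and 1119 CPM. Without the cell described above, the uninjured level of Krt17 was 782 CPM. The direction at 7 dpi turned with the gate at 2%, which left 9 uninjured cells: Krt17 was then at 588 against 148 CPM (log2 1.99). Krt79 was highest uninjured, at 847 CPM [803 to 893], against 133 [127 to 139] at 7 dpi and 205 [195 to 215] at 21 dpi, and it was at 6.93 and 77.1 CPM in the Gli1- cells. The same uninjured cell held 26.9% of the Krt79 UMIs, and the level without it was 630 CPM. A Krt79 UMI was in 12% of Gli1+ gated cells uninjured, 16.4% at 7 dpi and 15.1% at 21 dpi. After thinning to 2000 UMIs it was in 10.7%, 5.35% and 9.28%. The uninjured level thus rests on few cells with many counts. In the uninjured gated cells Krt79 and Krt17 were found together: of the 8 cells with a Krt79 UMI after thinning to 2000 UMIs, 7 had one of Krt17 (87.5%), against 29.9% of the cells without.

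Counting a gene as higher or lower at 2-fold or more with a mean of at least 10 CPM, all 10 members were at that level in both comparisons, Krt6b only through the injured libraries. At 7 dpi 5 members were higher (Krt14, Krt1, Krt10, Krt16 and Krt6b) and 2 lower (Krt15 and Krt79), where 6.38% of 8454 genes were higher and 7.63% lower. At 21 dpi 3 were higher (Krt6a, Krt6b and Krt16) and 2 lower (Krt15 and Krt79), against 4.37% and 8.4% of 8247 genes. Several of these calls were lost, and others gained, under other processing. At 7 dpi Krt14, at a log2 ratio of 1.01, fell under 2-fold in 7 of 14 alternatives, Krt15 in 7 of 14 and Krt10 in 6 of 14, while Krt1, Krt16 and Krt79 stayed past 2-fold in each that gave a value. At 21 dpi Krt15 fell under 2-fold in 5 of 15 alternatives and Krt79 in 4 of 14, and Krt6a and Krt16 did so in 1 of 15, at 0.50 and 0.56 without the cells that held another gate gene. In the other direction, Krt6a at 7 dpi, at 0.65, passed 2-fold in 4 of 14 alternatives, at 1.30 to 6.64, among them 1.78 without the top cell of each library. Krt17 at 7 dpi passed it in 2, at -1.57 and 1.99, and at 21 dpi in 1, at 2.80. At 21 dpi Krt14 passed it in 3 of 15, at 1.04 to 1.23, Krt1 in 1, at 1.12, and Krt10 in 4, at -1.70 to -1.26. Krt6b had no UMI uninjured and so no ratio. These contrasts were used to choose the genes, so nothing is read from the counts. Over the 9 members with a ratio the median log2 ratio was 0.65 at 7 dpi and 0.24 at 21 dpi, beside -0.15 and -0.20 over all genes at that level.

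**Figure D2:**
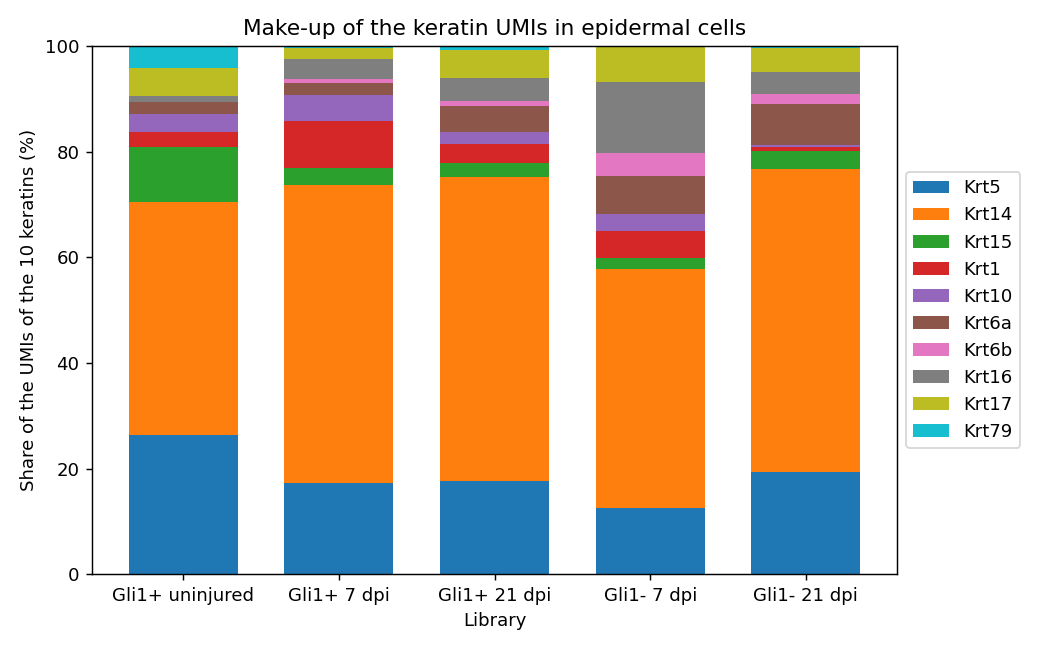
Share of the UMIs of the 10 keratins (stacked bars, percent) that each gene held in the epidermal cells of the 5 libraries that have such cells. Krt14 holds 44.1% uninjured and 56.3% and 57.5% at 7 and 21 dpi in the Gli1+ sort, while Krt5 goes from 26.4% to 17.3% and 17.6%, and Krt15 from 10.3% to 3.19% and 2.84%.

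The balance of type I to type II keratins differed between uninjured and injured libraries. Type I UMIs were 1.80 times type II UMIs in Gli1+ epidermal cells uninjured, 2.38 times at 7 dpi and 2.58 times at 21 dpi, and 2.45 and 2.34 times in the Gli1- cells. Krt16 took 1.06% of the keratin UMIs uninjured, 3.73% at 7 dpi and 4.23% at 21 dpi, and 13.5% in Gli1- cells at 7 dpi, where the 1 cell described above held 65.3% of it. The 10 members together made up 20204 CPM of epidermal UMIs uninjured, 31885 at 7 dpi and 24063 at 21 dpi. Of the other Krt genes, Krt2, a keratin of late suprabasal layers, was the highest at a mean of 51.6 CPM over the 5 libraries, followed by Krt80 at 17.0, Krt24 at 6.63, Krt42 at 5.89 and Krt18 at 5.69 CPM. By this mean all 10 members stood above these, but not in each library. Krt2 at 151 CPM was above Krt79 at 133 in Gli1+ 7 dpi, and at 101 CPM above Krt6b uninjured, and Krt80 at 32.3 and Krt18 at 20.8 CPM were above Krt79 at 6.93 in Gli1- 7 dpi. In all, 11 of the 53 Krt genes had no UMI in any gated cell.

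The wound keratins were held by part of the epidermal cells. Krt6a, Krt6b and Krt16 together reached 0.1% of a cell's UMIs in 6 of 75 Gli1+ epidermal cells uninjured (8.0% [2.99 to 16.6]), 548 of 1584 at 7 dpi (34.6% [32.3 to 37.0]) and 175 of 522 at 21 dpi (33.5% [29.5 to 37.8]). They reached 1% in 1, 47 and 17 cells. The tenth of cells with the most wound keratin held 90.4% of these UMIs uninjured, 69.6% at 7 dpi and 72.5% at 21 dpi. Among Gli1- cells, 15 of 30 cells at 7 dpi and 12 of 38 at 21 dpi reached 0.1%.

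**Figure D3:**
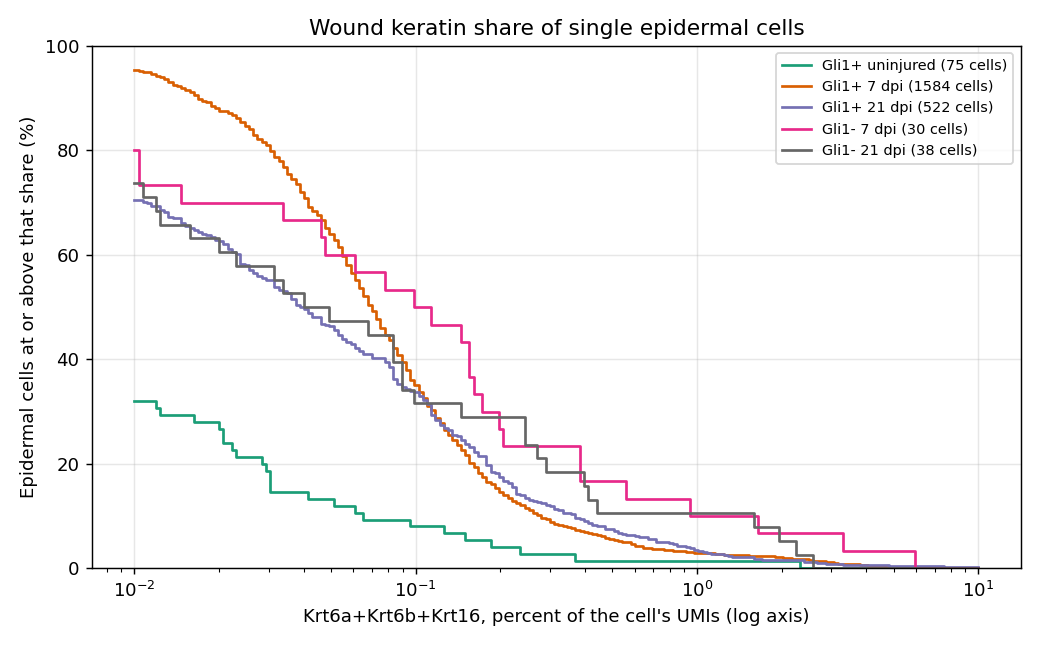
Percent of epidermal cells (y axis) in which Krt6a, Krt6b and Krt16 together make up at least the share of UMIs on the log x axis, 1 line per library. At 0.1% the Gli1+ lines of 7 and 21 dpi lie at 34.6% and 33.5% and the uninjured line at 8.0%.

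To compare cells of different depth, each was thinned to 2000 UMIs. The median gated cell held 20538 UMIs uninjured, 8907 at 7 dpi and 15186 at 21 dpi, and 0, 33 and 5 gated cells were left out as shallower. A Krt16 UMI was then found in 10.7% of the Gli1+ gated cells uninjured, 53.4% at 7 dpi and 30.9% at 21 dpi (22.7%, 88.4% and 57.5% without thinning). Cells that should lack it, those with Pdgfra outside every epidermal gate, had one in 0.0705%, 29.7% and 2.88% (median 8946, 10703 and 9598 UMIs). A Krt6a UMI was found in 10.7%, 40.9% and 45.1% of the gated cells and in 0.0705%, 11.9% and 2.17% of the Pdgfra cells. Krt6b was found in 0 of 75 cells, 14.2% and 5.03%, and in 0%, 6.70% and 0.94% of the Pdgfra cells. The 7 dpi library held 166 endothelial cells (median 6635 UMIs), of which 162 could be thinned. Of these, 36.4% [29.0 to 44.3] had a Krt16 UMI, 20.4% [14.5 to 27.4] Krt6a and 7.41% [3.89 to 12.6] Krt6b. Only for Krt6a did the endothelial interval lie above that of the Pdgfra cells [10.9 to 12.9]. At 7 dpi the gated cells were above the Pdgfra and the endothelial cells for Krt16 and Krt6a. For Krt6b the gated cells [12.5 to 16.0] were above the Pdgfra cells [5.95 to 7.51], while the gated and endothelial intervals overlapped. A 7 dpi share near either value cannot be told from that of cells that should lack the gene. For Krt1 the gated cells at 7 dpi were at 85.9% [84.1 to 87.6], the Pdgfra cells at 71.2% and the endothelial cells at 77.8% [70.6 to 83.9]. For Krt10 they were at 76.5% [74.3 to 78.6], 65.7% and 70.4% [62.7 to 77.3], so that the gated and endothelial intervals overlapped.

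Krt6a and Krt16 shared cells. In thinned Gli1+ epidermal cells at 21 dpi, Krt6a was present in 68.1% of the 160 cells with Krt16 and 34.7% of the 357 without. At 7 dpi, where more of the Pdgfra cells held Krt6a, it was present in 45.2% of 828 cells with Krt16 and 36.1% of 723 without. For Krt6b the shares were 14.4% and 0.840% at 21 dpi, and 17.4% and 10.5% at 7 dpi. Uninjured, 1 of the 8 cells with Krt16 had Krt6a, too few to compare.

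Gated cells fell into those with Krt1 and Krt10 under 0.5% of UMIs, as in the basal layer, and those at or above it. Of the Gli1+ gated cells, 72, 1313 and 480 were low and 3, 271 and 42 high, uninjured, at 7 and at 21 dpi. Another 22, 517 and 47 cells were under the gate with Krt1 and Krt10 at least 0.5%, as in suprabasal layers. These groups overlap with the basal and suprabasal epidermal cells that such genes mark. Krt16 was highest in the gated cells with high Krt1 and Krt10: at 7 dpi it was at 2559 CPM there, 899 in the low cells (log2 1.51) and 1315 in the cells under the gate. At 21 dpi the values were 1903, 926 and 1749 CPM. Krt6b followed with 591, 155 and 100.3 CPM at 7 dpi, and Krt6a with 1005, 661 and 133 CPM. Uninjured, the 22 cells under the gate with Krt1 and Krt10 held 49.4 CPM of Krt16 and no UMI of Krt6a or Krt6b.

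Among the cells under the gate with Krt1 and Krt10, Krt10 itself was at 12900 CPM uninjured, 14658 at 7 dpi and 10882 at 21 dpi. Krt1 was at 5940, 14956 and 11148 CPM. Krt10 thus took 65.8% of their keratin UMIs uninjured, 44.0% at 7 dpi and 40.2% at 21 dpi. Krt1, Krt10, Krt5 and Krt14 chose these cells, so their levels and this make-up are fixed in part by that choice. Krt16 was 26.6-fold higher at 7 dpi than uninjured in these cells (log2 4.73 [4.23 to 5.28]). They held a median of 27343 UMIs uninjured but 2658 at 7 dpi, and the part of that depth in the ratio was not tested. Seen over all cells that any epidermal measure picked (142, 2473 and 716), the 3 wound keratins summed to 393, 1965 and 2168 CPM, a log2 ratio of 2.32 at 7 dpi.

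A further 45, 372 and 147 Gli1+ cells under the gate were picked by the 15 other epidermal genes at 0.5% of UMIs. Their leading members were Krt15, Krt17, Krt14 and Krt5 uninjured. Krt15 was at 1314 CPM uninjured, 544 at 7 dpi and 2075 at 21 dpi, and Krt17 at 1172, 828 and 1852 CPM. Krt79 was at 23.3, 255 and 838 CPM, lowest uninjured, where it was highest in the gated cells. The cells picked by the 15 genes held a median of 19968, 2638 and 8345 UMIs, and the part of that depth was not tested. The transcript of Gli1, the gene whose promoter drives the label, was at 24.4, 15.8 and 16.4 CPM in these cells (22, 21 and 23 UMIs) and at 2.42, 1.11 and 1.03 CPM in gated ones (4, 17 and 9 UMIs). The 15 genes chose these cells, so only the keratins and Gli1 are compared.

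**Figure D4:**
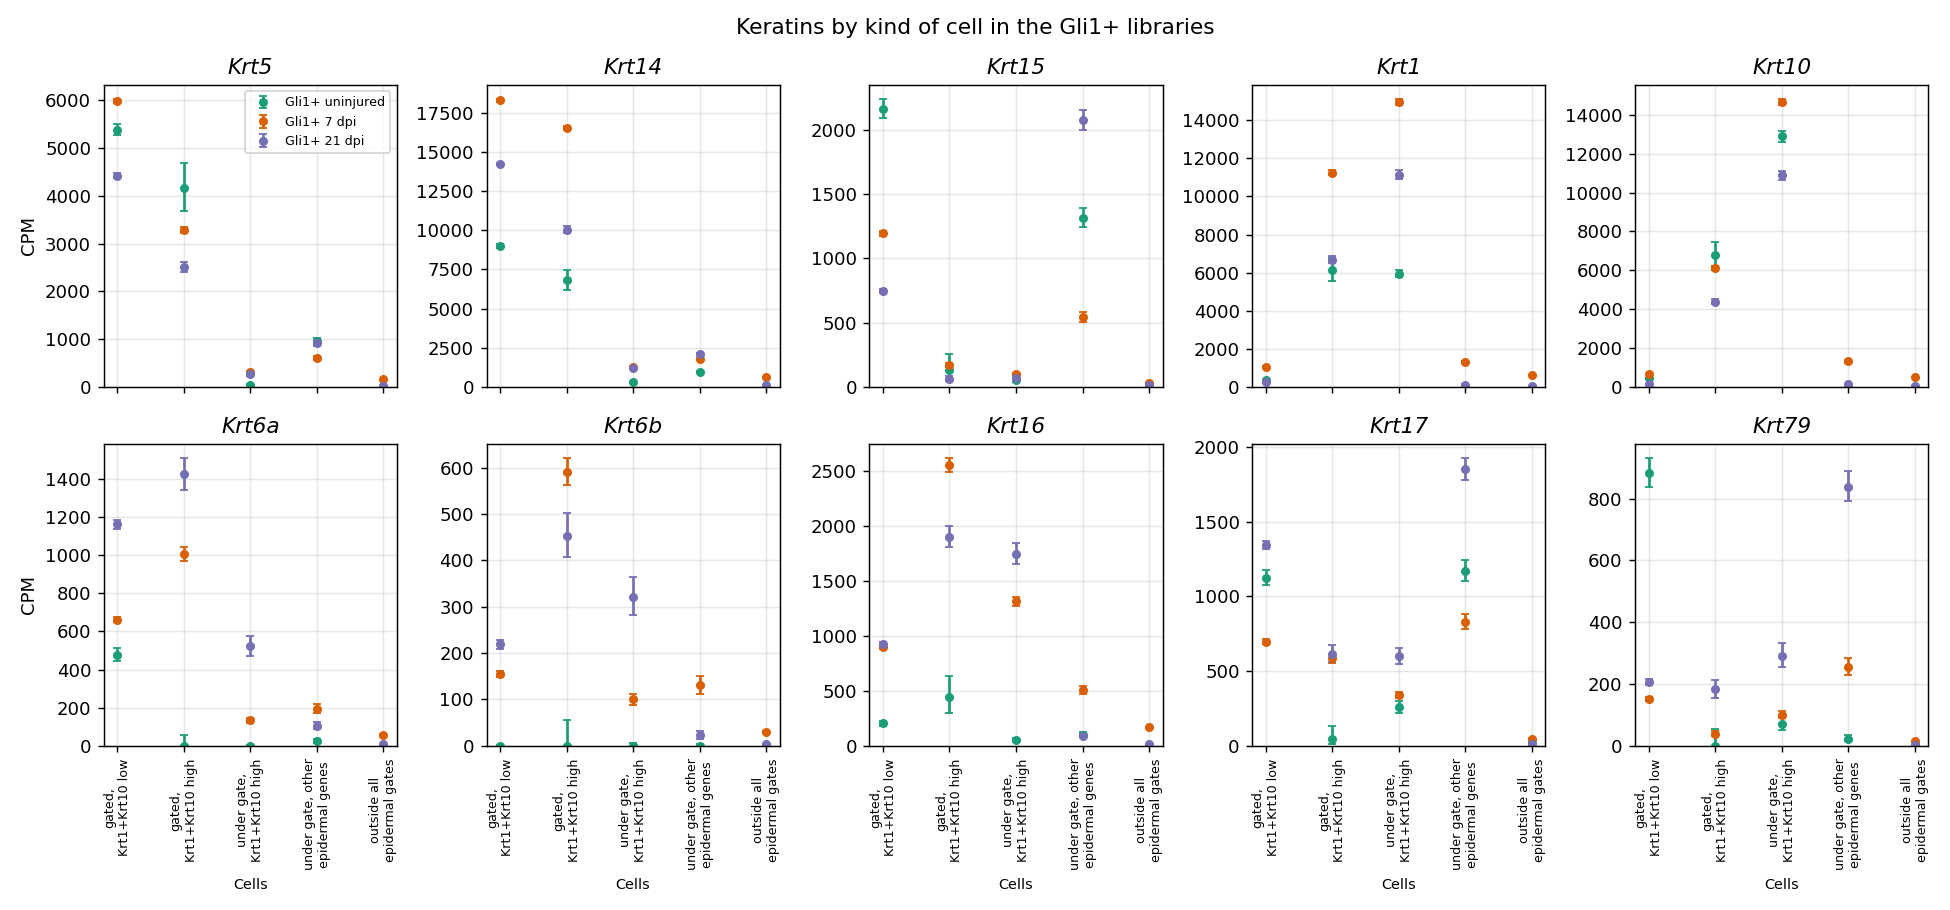
CPM of each keratin (points, bars are 95% Poisson intervals, each panel with its own scale from 0) in 5 kinds of cell of the 3 Gli1+ libraries: gated cells with Krt1 and Krt10 low or high, cells under the gate with Krt1 and Krt10 high or with other epidermal genes, and cells outside all epidermal gates. Krt16 is highest in gated cells with Krt1 and Krt10 high at 7 dpi (2559 CPM), and Krt15 stands apart in the low gated cells and in those picked by other epidermal genes.

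Cells lay close to the gate on both sides. Gli1+ cells just under it, with Krt5 and Krt14 at 0.25% to 0.5% of UMIs, numbered 32, 375 and 142, and those just over it, at 0.5% to 1%, 24, 227 and 141. Krt14 was at 1890, 2689 and 2646 CPM just under and at 4657, 5782 and 5698 just over. Krt16 was at 11.1, 880.2 and 325 CPM just under and at 81.5, 879.5 and 926 just over. At 7 dpi the cells on each side of the gate therefore held about the same Krt16. Those just under it had a median of 2532 UMIs and those just over it 6046. The former can include cells with high Krt1 and Krt10. The part of either in these levels was not tested.

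Gated cells with much and little wound keratin differed in other genes too, with the other members among them. In the Gli1+ libraries 88 cells at 7 dpi and 37 at 21 dpi had the 3 wound keratins at 0.5% of UMIs or more, and 1036 and 347 cells had them under 0.1%, with 460 and 138 between. The high cells were deeper, with a median of 13324 against 8533 UMIs at 7 dpi and 24430 against 12440 at 21 dpi. Krt15 was at 108 against 1334 CPM at 7 dpi (log2 -3.63) and 47.6 against 1053 at 21 dpi (log2 -4.47). Krt17 was at 2638 against 457 CPM and 2838 against 885. Krt1 was at 6256 against 1933 CPM and 2508 against 465, and Krt10 at 3398 against 1156 and 1310 against 315. Krt14 was at 21582 against 16712 CPM and 18093 against 12412, while Krt5 was at 3995 against 5693 and 3499 against 4071. The high cells thus had less Krt15 and Krt5 and more of the suprabasal pair and Krt17 at both times. Krt79 was at 57.4 against 130 CPM at 7 dpi and 156 against 316 at 21 dpi.

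**Figure D5:**
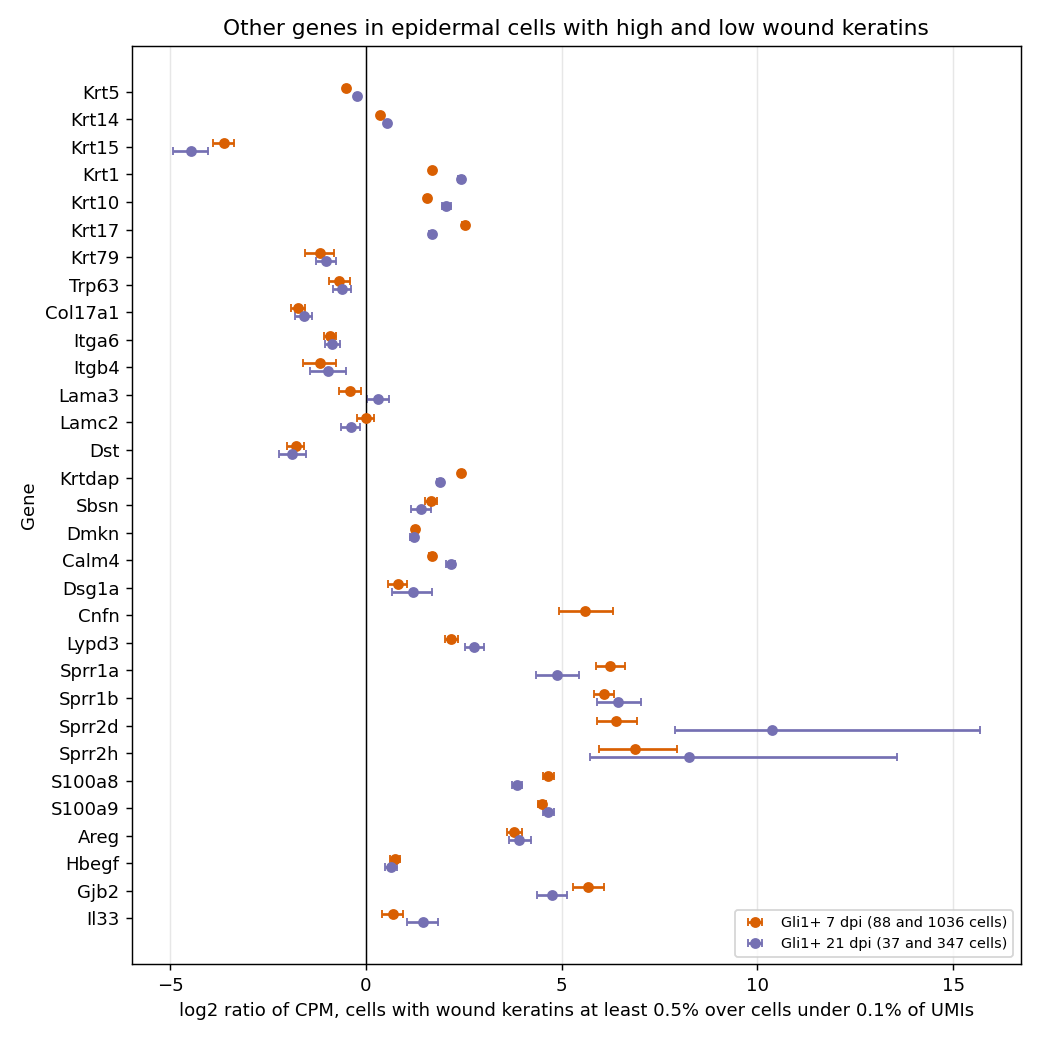
log2 ratio of CPM (points, bars are 95% intervals) in gated Gli1+ cells with Krt6a, Krt6b and Krt16 at 0.5% of UMIs or more over those under 0.1%, at 7 dpi and 21 dpi, for 31 genes: 7 other keratins and the genes of 3 lists that reached 50 CPM in either group of cells at each time. Listed genes could thus enter through the cells where they were high. Sprr1b, S100a9 and Gjb2 lie far to the right and Krt15 and Col17a1 to the left at both times. Cnfn has no point at 21 dpi, where the low cells held none.

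Of the 17 wounded keratinocyte genes that are not keratins, 16 were at a mean of 10 CPM in this comparison at 7 dpi, and 9 of them were at least 2-fold higher in the high cells and 0 lower, where 3.52% of 8163 genes were higher and 9.13% lower. At 21 dpi 10 of 15 were higher and 0 lower, against 5.69% and 13.3% of 7820 genes. Of the higher genes, 5 at 7 dpi and 4 at 21 dpi were under 10 CPM in the low cells and so reached the level only through the high cells, where they had to differ, and nothing is read from the counts. Others were not at 2-fold. Il1rn, an inhibitor of interleukin 1, was at 20.6 CPM in the high and 19.4 in the low cells at 7 dpi. Lcn2, an iron-scavenging lipocalin, was at 32.6 against 26.9 CPM at 7 dpi, and at 21 dpi it was lower in the high cells, at 66.4 against 108 CPM (log2 -0.70 [-1.11 to -0.31]). Sprr1b, a cornified envelope protein, was at 983 CPM in the high and 14.5 in the low cells at 7 dpi and at 551 and 6.33 at 21 dpi. S100a9, of the alarmin pair calprotectin, was at 2293 against 102 CPM and 2389 against 94.3. Gjb2, the gap junction protein connexin 26, was at 331 against 6.46 CPM and 407 against 15.2. Col17a1, a hemidesmosome collagen of the basal layer, was lower, at 229 against 764 CPM and 197 against 590. These genes were named after their values were seen. Gjb2 at 7 dpi and Sprr1b at 21 dpi are among those under 10 CPM in the low cells. Of 6 mesenchymal marker genes, 0 were at 2-fold in either direction at 7 dpi, with a median log2 ratio of -0.09 (Col1a1 at 1872 against 2191 CPM, Col3a1 at 1707 against 1686). At 21 dpi 5 were at the level, 0 were higher and 2 lower, with a median of -0.96 (Col1a1 at 365 against 824 CPM).

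Between the libraries, the list of wounded keratinocyte genes other than keratins (17 genes, 13 at a mean of 10 CPM) had 7 higher and 0 lower at 7 dpi, of which 4 were under 10 CPM uninjured and reached the level only through the injured library. S100a8 was at 173 CPM against 3.03 uninjured, S100a9 at 307 against 12.1, the growth factor Areg at 107 against 6.05 and Sprr1b at 91.5 against 10.3. At 21 dpi 10 of 14 were higher and 0 lower, where 4.37% of genes were higher and 8.4% lower, and 6 of the 10 were under 10 CPM uninjured. Of 9 basal attachment genes, 0 were higher and 2 lower at 7 dpi (Itga3 at 34.0 against 177 CPM and Itgb4 at 89.1 against 213, both integrins of the basal side). Of 13 suprabasal and cornified genes, 6 were at the level and 1 was lower, Krtdap at 850 against 2093 CPM, while Krt1 and Krt10 were higher.

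Hair follicle and sebaceous genes had 1 of 12 higher and 6 lower at 7 dpi, and the former and 1 of the latter reached 10 CPM only through the library where they were high. The largest were Defb6, a beta-defensin, at 24.9 against 954 CPM and Cst6, a cystatin protease inhibitor, at 69.2 against 1397 CPM. The 1 higher gene was Cd34, at 20.6 against 4.84 CPM. Krt79 and Krt15 were also lower at 7 dpi than uninjured. Among gated cells at 7 dpi, Cst6 did not follow them. It was higher in the cells with much wound keratin, at 226 against 59.1 CPM, where Krt15 and Krt79 were lower. There 1 of 9 genes of this list at the level was higher and 6 were lower. Of 13 regulators of keratin genes, 0 were higher and 2 lower (Tfap2c at 87.5 against 199 CPM and Fosl1 at 70.9 against 156). Of 12 desmosome and junction genes 1 was lower, Epcam at 85.4 against 292 CPM. Of 10 cell cycle genes 2 were higher, the replication genes Mcm5 at 29.7 against 6.66 CPM and Mcm2 at 21.8 against 7.87. Both were under 10 CPM uninjured and reached the level only through the 7 dpi library, so nothing is read from this count. Mki67 was at 112 against 200.4 CPM. These counts stand beside the backgrounds of 6.38% higher and 7.63% lower given above.

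Outside every epidermal gate, keratin UMIs were counted in all 6 libraries, at levels that differed by library. In the Gli1+ sort Krt14 was at 24.1 CPM uninjured, 630 at 7 dpi and 89.5 at 21 dpi, and in the Gli1- sort at 0, 11.9 and 12.7. Krt1 was at 2.09, 623 and 27.3 CPM in the Gli1+ sort and 0.0373, 4.51 and 4.04 in the Gli1- sort. Krt16 was at 0.527, 168 and 15.6 CPM, and at 0, 4.61 and 3.03. Krt5 was at 20.7, 160 and 22.9 CPM and at 0, 2.99 and 3.77. Krt6a was at 0.445, 58.4 and 10.1 CPM, Krt6b at 0.0494, 30.3 and 3.71, and Krt17 at 21.2, 49.1 and 14.0 in the Gli1+ sort. The Gli1+ 7 dpi library, which had the most epidermal cells, was the highest for each of them. In the Gli1- uninjured library, with no epidermal cell, Krt10 made up 93.9% of the members' UMIs outside the gates and Krt79 5.78%, and 7 members had no UMI.

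At 7 dpi the leading members took near-equal shares of the keratin UMIs in the cell types outside the epidermis, at levels that differed. In the Gli1+ library, cells with Pdgfra, the mesenchymal gate gene, held 608 CPM of Krt14 and endothelial cells (Pecam1 or Cdh5) 735, a log2 ratio of 0.27 [0.18 to 0.36], and that of Krt6a was 0.53 [0.23 to 0.80]. Krt14 made up 27.8% of the members' UMIs in the former and 27.4% in the latter, Krt1 27.3% and 27.2%, and Krt10 22.6% and 22.4%. Free RNA from broken cells in the droplet suspension would reach every cell type in 1 ratio, and how much of these counts is such RNA was not tested. The gated cells of that library had another make-up, with 56.3% Krt14, 8.89% Krt1 and 5.04% Krt10. The ratio of epidermal to outside cells was lowest for Krt10, at 1.63 on the log2 scale, and was 2.19 for Krt1, 2.83 for Krt16, 4.83 for Krt14 and 5.11 for Krt5. At 21 dpi these log2 ratios were 3.55, 4.97, 6.02, 7.27 and 7.53. Krt5 and Krt14 set the gate, and cells under it with high Krt1 and Krt10 were on neither side. This make-up and this order are therefore fixed in part by the gate. Over all cells that any epidermal measure picked at 7 dpi, Krt10 was at 3476 and Krt1 at 4485 CPM, against 1609 and 2836 in gated cells.

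Uninjured, the keratin counts outside the epidermis differed between cell types in the Gli1+ library. Krt5 was at 3.43 CPM [2.53 to 4.53] in Pdgfra cells, 47.9 [41.1 to 55.5] in endothelial cells and 20.5 [18.3 to 22.9] in Ptprc cells. Krt17 was at 1.33, 34.4 and 25.9 CPM, and Krt14 at 6.29, 43.3 and 27.6. Krt10 was at 17.7, 14.3 and 7.47 CPM. Few cells carried these counts: before thinning, a Krt14 UMI was in 6.07% of 1434 Pdgfra cells and 5.66% of 530 endothelial cells, and a Krt5 UMI in 2.86% and 3.77%.

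The order of the 10 members in Gli1+ epidermal cells was Krt14, Krt5, Krt15, Krt17, Krt79, Krt10, Krt1, Krt6a, Krt16, Krt6b uninjured. At 7 dpi it was Krt14, Krt5, Krt1, Krt10, Krt16, Krt15, Krt6a, Krt17, Krt6b, Krt79. At 21 dpi it was Krt14, Krt5, Krt17, Krt6a, Krt16, Krt1, Krt15, Krt10, Krt6b, Krt79. Neighbours in these orders had counting intervals that did not overlap, but the uninjured order rests in part on the 1 cell rich in wound keratins. Without it Krt17 was at 782 CPM [740 to 827], Krt10 at 710 [670 to 753] and Krt79 at 630 [592 to 670], with Krt1 at 591 [555 to 630], and each of these 4 overlapped the next in its interval. Further, no replicate library gives the spread that would be needed to say that they differ. Over the 5 libraries with epidermal cells, the genes whose log2(CPM + 10) was most like that of Krt16 among 2074 genes were Ap2m1, Arpc2, Fam162a, Tmem258 and Eif1, with Pearson r from 0.992 to 0.998 over 5 points that share sort and depth. In 3 of the 5 libraries 1 cell held 59.5% to 66.4% of the Krt16 UMIs, and with the cell highest in wound keratins left out of each library r was 0.839 for Ap2m1 and 0.898 to 0.991 for the other 4. Their ranges were smaller than that of Krt16, which went from 214 to 4549 CPM. Ap2m1 went from 78.7 to 109 CPM, and Fam162a, with the widest range of the 5, from 363 to 1224.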

How the data were processed

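The matrices hold UMI counts per gene and cell, deposited by the authors as unnormalized counts from Chromium 3′ v3 libraries, 1 library per sort and time point. The matrix headers name Cell Ranger 9.0.0, while the submitters' processing notes name Cell Ranger 3.1.0, STAR and mm10, and which version made the tables is not given in the sources used here. Of 33696 gene identifiers, 31961 were found in GENCODE vM21 (GRCm38), all 10 members among them, and 1735 were not.

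Cells were kept with at least 200 genes, 1000 UMIs, and log10 genes over log10 UMIs of 0.7 or more, and dropped where mitochondrial or hemoglobin genes took over 5% of UMIs. Doublets were removed with Scrublet in scanpy 1.11.5 at 0.8% per 1000 cells, in place of the DoubletFinder the study used. Counts were summed over the cells of a set and divided by their total UMIs. No test between conditions was run, since each had 1 library. A gene was called at 2-fold or more with a mean of at least 10 CPM. TMM factors came from edgeR 4.0.16 (R 4.3.3), and other steps from Python 3.11.15. Scripts were tested on simulated data. Up to 4 genes per list were named by the size of their log2 ratio at 7 dpi, with the 5 highest other Krt genes and the 5 genes most like Krt16, and any other named gene was chosen after its values were seen. The members and lists were chosen with earlier results of these data known. Alternatives covered the gate, the filters, doublets, scaling, thinning and the subtraction of counts in other cells.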

Additional observations from a re-analysis of the deposited data

Results flagged for a closer look

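4 members differed in direction between the sorts when 21 dpi was set against 7 dpi in epidermal cells, with counting intervals off 0 in both sorts, and the difference was not tested, since each sort and time had 1 library. On the log2 scale, Krt5 was at -0.38 in Gli1+ and 0.14 in Gli1- cells, and Krt15 at -0.58 and 0.23. Krt6a was at 0.72 in Gli1+ and -0.38 in Gli1- cells, and Krt17 at 0.91 and -1.05. Krt6b also differed in sign, at 0.06 and -1.73, but its Gli1+ interval of -0.02 to 0.14 holds 0. The Gli1- values rest on 30 cells at 7 dpi and 38 at 21 dpi, where 1 cell held 54.9% and 54.3% of the UMIs of Krt6a, Krt6b and Krt16. Without that cell of each library, Gli1- Krt5 was at 4352 CPM at 7 dpi and 4314 at 21 dpi, so that it no longer went up. The same cells left out, Krt15 was at 773 and 923 CPM, Krt6a at 1716 and 1145, and Krt17 at 1638 and 971, in the directions given. The intervals of Krt15 then overlapped, at 689 to 864 CPM and 842 to 1009 CPM.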

How the results depend on the processing

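The wound keratin sum (Krt6a, Krt6b and Krt16) stayed higher in the injured Gli1+ library under every alternative that gave a value. Its log2 ratio of 7 dpi over uninjured, 1.67, became 4.30 with the gate at 2% (9 uninjured cells), 2.34 with the gate on 15 other epidermal genes, 1.52 with all deposited barcodes, 1.45 without doublet removal, 1.84 with TMM scaling, 1.45 with the CPM of cells under the gate subtracted, 1.81 as a mean over cells and 1.79 after thinning. At 21 dpi 1.86 became 2.33 with the gate at 0.1%, 4.75 at 2%, 2.48 with the 15 genes, 1.73 without doublet removal, 2.06 with TMM, and 0.52 without cells holding a UMI of Pdgfra, Col1a1, Ptprc, Pecam1 or Cdh5, which left 34 of 75 and 13 of 522 cells. That alternative gave no value at 7 dpi, where every gated cell held such a UMI. Of alternatives chosen after seeing the data, leaving out the top cell gave 2.89 and 3.04, any epidermal gate 2.32 and 2.46, gated cells with low Krt1 and Krt10 1.33 and 1.76, subtracting cells outside all gates 1.49 at 7 dpi, and adding Krt17 to the sum 0.68 and 1.08. The log2 ratio of the epidermal share at 7 dpi, 4.01, became 4.58 with the gate at 0.1%, which took in 4259 of 9250 cells at 7 dpi, and 6.41 at 2%. Of the members' calls at 2-fold, those of Krt14, Krt15 and Krt10 at 7 dpi and of Krt15, Krt79, Krt6a and Krt16 at 21 dpi were lost under at least 1 alternative, down to 0.50 for Krt14, -0.27 for Krt15 and -0.0074 for Krt10 at 7 dpi, and to -0.82 for Krt15 and -0.63 for Krt79 at 21 dpi. Single members changed sign 6 times at 7 dpi and 9 times at 21 dpi. At 7 dpi Krt10 went from 1.20 to -0.0074 with the CPM of cells under the gate subtracted, Krt17 from -0.67 to 1.99 with the gate at 2%, and Krt5 from 0.05 to between -0.56 and -0.05 under 4 alternatives. At 21 dpi Krt1 went from 0.56 to between -0.42 and -0.0016 under 5, Krt5 from -0.33 to between 0.02 and 0.24 under 3, and Krt10 from -0.40 to 0.02 with the gate at 0.1%. The causes were not tested. Of the single members' values, 31 of 125 at 7 dpi and 47 of 134 at 21 dpi stayed within the counting interval of the reported value. No paired analysis was possible because the time points compared had 1 library each. A fit of sort and time together, which would take the difference between the sorts' time courses as error, was not run. The 75 uninjured gated cells limit every ratio.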
